A study of Mus musculus with 20 samples.

Results

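The mitochondrial genome of the mouse carries 37 genes, and all 37 were among the 55471 genes of the deposited count table. They were chosen by symbol (mt-) and by their place on chromosome M in the GENCODE M21 annotation of the mouse genome build GRCm38, with every identifier matching to its version. The set held 13 protein-coding genes, 2 ribosomal RNA (rRNA) genes and 22 transfer RNA (tRNA) genes, 28 of them on the plus strand and 9 on the minus strand. The 9 on the minus strand were mt-Nd6 and 8 tRNA genes.

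The data are total RNA libraries, made with a strand-preserving Illumina kit, of the mouse salivary gland line SIMS, which was grown in DMEM with 10% FBS. The unedited line (wild type) was compared with cells knocked out by CRISPR/Cas9 for Btbd7, a BTB domain protein known for its role in salivary gland branching and labelled as the negative control, and with 3 clones knocked out for Zcchc8, a zinc knuckle protein of the nuclear exosome targeting complex. Each of the 5 groups had 4 libraries, so the Zcchc8 knockout (KO) was covered by 12 libraries from 3 clones, and each clone is 1 line. Whether the 4 libraries of a group came from separate cultures is not given in the sources used here, so p-values measure only the spread between these libraries, which may be technical. All comparisons use the same wild-type libraries.

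Mitochondrial DNA is transcribed from both strands into long precursors that run across many genes. In most places tRNAs stand between the mRNAs and rRNAs, and their excision by RNase P and ELAC2 releases the neighbouring transcripts. The 13 mRNAs encode subunits of the respiratory chain and of ATP synthase, and the 2 rRNAs form the core of the mitochondrial ribosome that translates them.

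The mRNA genes with almost no counts all lie in a stretch of chromosome M that has near-identical copies of most of its mRNA genes on chromosome 1, so 2 such pairs are shown first, beside 2 genes with counts and their copies on other nuclear chromosomes. Each pair below gives the first 120 aligned bases of a mitochondrial gene and of its nuclear copy as GENCODE M21 lists them, 5′ to 3′ on the gene's own strand, with bases that differ between the pair in capitals.
mt-Nd4l, chrM:9877-9996, plus strand: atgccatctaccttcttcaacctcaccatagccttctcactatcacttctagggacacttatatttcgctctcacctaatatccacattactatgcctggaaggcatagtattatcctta
Gm10222, chr1:24612581-24612700, minus strand: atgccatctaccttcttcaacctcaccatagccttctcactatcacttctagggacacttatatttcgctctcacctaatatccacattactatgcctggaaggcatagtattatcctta
mt-Nd3, chrM:9459-9578, plus strand: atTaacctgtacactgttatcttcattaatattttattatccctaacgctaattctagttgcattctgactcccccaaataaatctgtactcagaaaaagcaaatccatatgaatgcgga
Gm28438, chr1:24613000-24613119, minus strand: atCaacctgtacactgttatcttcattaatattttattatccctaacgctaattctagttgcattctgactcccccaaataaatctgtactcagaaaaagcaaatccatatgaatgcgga
mt-Co1, chrM:5328-5447, plus strand: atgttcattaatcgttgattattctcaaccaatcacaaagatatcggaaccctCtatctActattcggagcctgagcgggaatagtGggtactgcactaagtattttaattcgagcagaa
Gm13340, chr2:22589528-22589647, minus strand: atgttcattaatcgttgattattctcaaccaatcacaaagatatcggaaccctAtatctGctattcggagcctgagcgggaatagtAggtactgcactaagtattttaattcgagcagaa
mt-Cytb, chrM:14146-14265, plus strand: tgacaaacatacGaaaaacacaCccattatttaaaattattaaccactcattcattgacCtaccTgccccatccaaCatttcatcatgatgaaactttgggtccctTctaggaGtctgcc
Gm11410, chr4:80003990-80004109, plus strand: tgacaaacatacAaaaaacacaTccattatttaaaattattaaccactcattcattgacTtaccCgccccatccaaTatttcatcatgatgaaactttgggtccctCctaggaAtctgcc
The mt-Nd4l and Gm10222 stretches were identical. In the mt-Nd3 pair the single difference was T3C, counted from the first base of mt-Nd3. The mt-Co1 pair differed at 3 and the mt-Cytb pair at 7 of the 120 bases.

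A run of 7 annotated genes on the minus strand of chromosome 1, between positions 24611535 and 24616197, matched mitochondrial genes over 294 to 876 bases with at most 1 mismatch each. They lie in the same order as on chromosome M, and from Gm28661 (the copy of mt-Co2) to Gm28439 (the copy of the first part of mt-Nd4) the spacing of their starts was equal to that on chromosome M to within 1 base. Together they cover chromosome M from position 6390, inside mt-Co1, to position 11042, inside mt-Nd4. In all, 11 members lay wholly inside that stretch, the mRNA genes mt-Co2, mt-Atp8, mt-Atp6, mt-Co3, mt-Nd3 and mt-Nd4l and 5 tRNA genes. These 11 genes held 18 counts in all 20 libraries together, no more than 4 in any library, and 7 of them had none in any library. The chromosome 1 copies held 1871 counts in all, of which Gm28438 had 778 while mt-Nd3 had 0. How reads that align to several places were counted is not given in the sources used here, and its part in these counts was not tested. Whatever the cause, these 11 genes held too few counts for anything about their RNA level to be read from this table.

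No annotated nuclear transcript matched mt-Atp8, which had 1 count in all, or the 5 tRNA genes inside the stretch. The other 26 members lay wholly or partly outside the stretch, and 4 of them, all tRNA genes, had no count in any library. Both genes that the stretch enters had counts. Of mt-Nd4 the first 876 bases of 1378 are identical to Gm28439, and the gene held 769057 counts. The stretch takes in 483 aligned bases at the end of mt-Co1, which match Gm29216 with 1 mismatch, and mt-Co1 held 4161045 counts. On other nuclear chromosomes the best match was 97.6% identical over 1545 bases for mt-Co1 (Gm13340), 96.7% over 510 bases for mt-Nd2 (Gm13339), 93.6% over 519 bases for mt-Nd6 (Gm11408), 92.9% over 1142 bases for mt-Cytb (Gm11410) and 92.3% over 1058 bases for mt-Nd5 (Gm11407). For mt-Nd1 and both rRNA genes no annotated nuclear transcript matched at 90% identity over 50 bases.

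Libraries held 6833258 to 17771804 counts, and the library labelled wild-type replicate 1 stood apart. It had counts for 14245 genes where wild-type replicates 2 to 4 had them for 17442 to 18791. The calls on members and on the lists of nuclear genes, and the ratios of members, are given with and without it. The edited genes were as follows at the RNA level, in CPM (a gene's counts scaled to a common library size, with TMM factors): Btbd7 was at 199.9 ± 7.87 in wild type and 98.5 ± 3.50 in the Btbd7 KO, and Zcchc8 was at 64.4 ± 2.90 in wild type and at 60.9 ± 4.27, 23.5 ± 1.44 and 54.4 ± 4.90 in Zcchc8 KO clones 1 to 3 (SD, n = 4 libraries each). An edited gene can keep its RNA, so the levels in clones 1 and 3 do not check their labels. Of 11 epithelial marker genes 10 had at least 10 counts in every library of every group, with a summed level of 3587 to 5647 CPM, and 4 endothelial markers were at 0 to 1.16 CPM. The summed level of 8 fibroblast markers (Thy1 and Lum at 0 in all libraries) was 11.3 to 18.2 CPM in wild type, 22.4 to 35.1 CPM in the Btbd7 KO and 10.2 to 14.4, 24.6 to 28.6 and 22.0 to 26.4 CPM in clones 1 to 3, and its part in the mitochondrial results was not tested.

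Mitochondrial genes took up 4.13% to 7.24% of a library's counts. The highest share, 7.24% (95% Wilson interval 7.23% to 7.26%, counting error only), was that of wild-type replicate 1, and the other wild-type libraries had 4.13%, 4.56% and 5.39%. Shares were 5.07% ± 0.245 in the Btbd7 KO and 5.65% ± 0.104, 5.15% ± 0.389 and 5.16% ± 0.317 in Zcchc8 KO clones 1 to 3 (SD, n = 4). All these group ranges overlapped the wild-type range, that of clone 1 only through wild-type replicate 1. Without that replicate wild type had 4.695% ± 0.641 (SD, n = 3). All 4 libraries of clone 1, at 5.555% to 5.791%, lay above the highest of those 3, while the ranges of the other groups still overlapped them. The 7 mRNAs with counts made up 99.44% of all mitochondrial counts.

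Per kilobase of gene, the mRNAs differed widely among themselves. The median over the 20 libraries was highest for mt-Nd1 (a subunit of complex I) at 14817 CPM per kb, followed by mt-Co1 (the catalytic subunit of cytochrome c oxidase) at 10779 CPM per kb. Next came mt-Nd2 at 6551, mt-Cytb (the cytochrome b of complex III) at 5050, mt-Nd5 at 3069 and mt-Nd4 at 2212 CPM per kb. The ranges over libraries of mt-Nd4 (1494 to 3946) and mt-Nd5 (2102 to 4231), and those of mt-Nd2 (5179 to 9624) and mt-Cytb (3806 to 6188), overlapped. The order of mt-Nd1 and mt-Co1, and the place of mt-Nd4, depended on the length used. Divided only by the length outside the chromosome 1 stretch, mt-Co1 had a median of 15681 and mt-Nd4 of 6072 CPM per kb. On the minus strand mt-Nd6, another subunit of complex I, had a median of 225.6 CPM per kb. The rRNAs had medians of 81.5 CPM per kb for mt-Rnr1 (12S rRNA) and 111.6 CPM per kb for mt-Rnr2 (16S rRNA). Kits of this kind are used with a step that removes rRNA, and the sources used here do not name the probes, so the rRNA level is not compared with that of mRNAs.

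**Figure D1:**
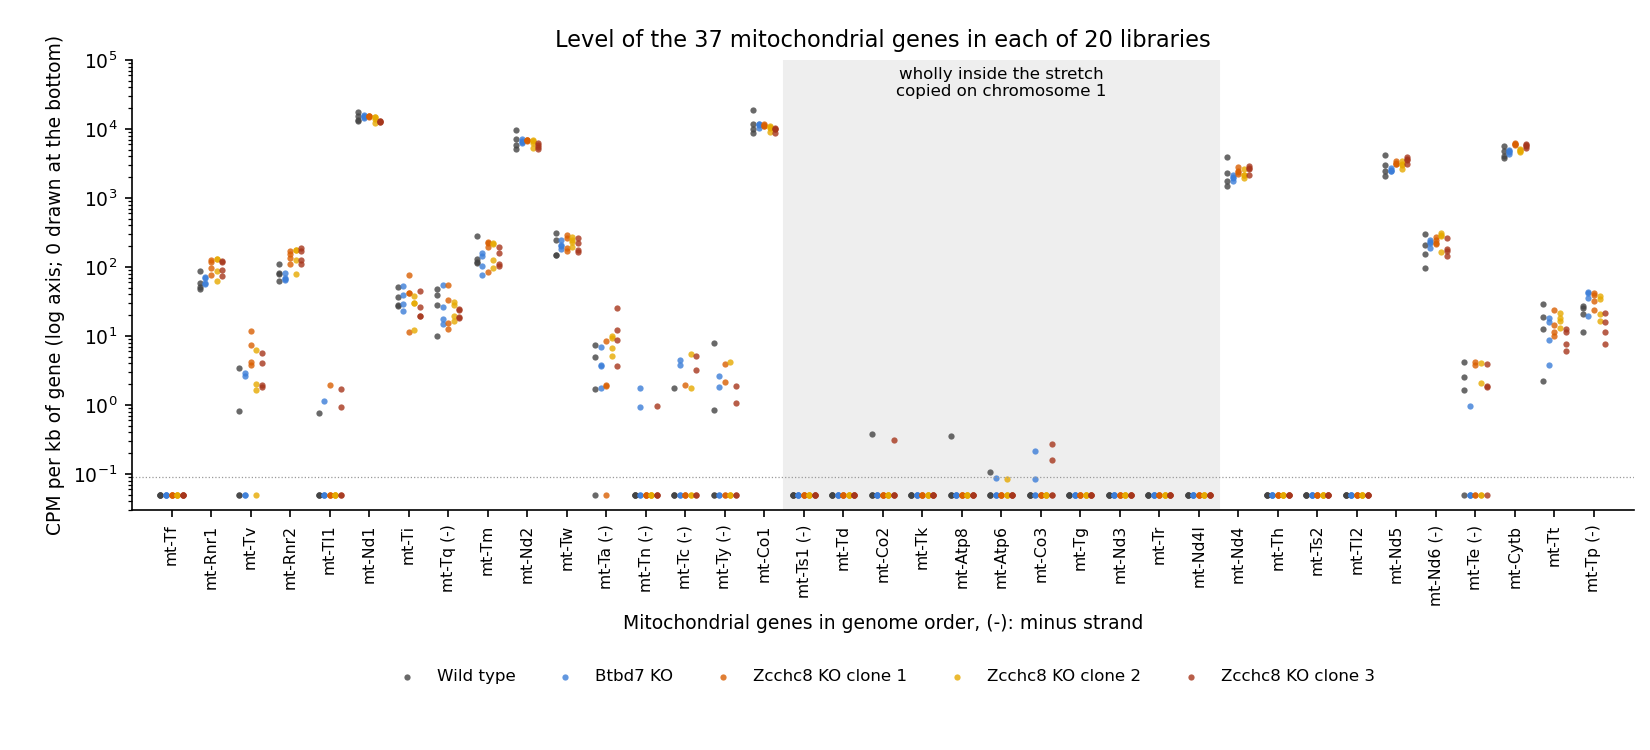
Level of each of the 37 mitochondrial genes, in genome order, in CPM per kb of gene on a log axis, with 1 point per library coloured by group and libraries with no count drawn at the bottom edge under the dotted line. The grey band marks the 11 genes wholly inside the stretch copied on chromosome 1, which hold at most 4 counts in any library.

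The test of edgeR was run on 15296 genes with enough counts, and calls were made at an adjusted p under 0.05 over all of them. Of the 37 members 15 were tested, 7 mRNAs, both rRNAs and 6 tRNAs, and 22 had too few counts. In the mean of the 3 Zcchc8 KO clones against wild type, 3 of the 15 were higher (mt-Rnr1, mt-Rnr2 and mt-Cytb), against 17.7% of all genes tested, and 0 were lower, also against 17.7%. Of the 15, 4 had an unadjusted p under 0.05, and DESeq2 called 3 higher and 0 lower from the same counts. The shares of all genes at an unadjusted p under 0.05 or called by DESeq2 are not given. Counts of these kinds are therefore not read as a result about the members. The median log2 fold change of the 15 was 0.03, against 0.02 over all genes. Without wild-type replicate 1, 5 were higher, against 17.2% of 15556 genes, and 0 were lower, against 19.1%. The 2 added were mt-Nd4 and mt-Nd5.

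In CPM both rRNAs of the mitochondrial ribosome were higher in the Zcchc8 KO clones. These are counts from a kind of library used with a step that removes rRNA, so they need not follow the level in cells. In wild type mt-Rnr1 was at 45.7 CPM in replicate 1 and at 82.9, 56.5 and 48.95 CPM in replicates 2 to 4. In clone 1 it was at 111.5, 119.4, 72.7 and 93.7 CPM, in clone 2 at 58.8, 83.7, 126.0 and 124.3 CPM, and in clone 3 at 84.9, 112.9, 71.0 and 115.5 CPM. Of the 12 KO libraries 9 lay above all 4 wild-type libraries, and the groups overlapped through wild-type replicate 2 on one side and 1 library of each clone on the other. The log2 fold change was 0.75 ± 0.17 (SE, adjusted p = 0.00133).

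The larger rRNA moved by a like amount. The values for mt-Rnr2 in wild type were 97.5 CPM in replicate 1 and 177.3, 130.8 and 125.0 CPM in replicates 2 to 4. Clone 1 had 266.0, 245.7, 175.0 and 216.3 CPM, clone 2 had 124.5, 198.5, 280.0 and 281.2 CPM, and clone 3 had 197.2, 294.2, 175.9 and 267.7 CPM. Again 9 of the 12 KO libraries were above every wild-type library. The log2 fold change was 0.78 ± 0.17 (SE, adjusted p = 0.000728). Each clone gave both calls, at log2 0.72 to 0.76 for mt-Rnr1 and 0.74 to 0.82 for mt-Rnr2, and the joint test for a difference among clones passed for neither (adjusted p = 0.987 and 0.968). Fitted with only the 2 groups compared, clone 2 lost both calls, at log2 0.74 and 0.73 (adjusted p = 0.0522 for each), while clones 1 and 3 still gave them. Without wild-type replicate 1 the log2 fold changes were 0.63 and 0.64 (adjusted p = 0.000868 and 0.0004), and with libraries summed per cell line, 3 clones against the 2 control lines, mt-Rnr2 was higher by log2 0.89 ± 0.11 (SE, adjusted p = 0.00505).

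Counts of cytosolic rRNA reads in the same libraries are given beside these values. Gm42418, a nuclear locus that collects reads of cytosolic rRNA, was at 547.2 CPM in wild-type replicate 1 and at 2352, 1570 and 1066 CPM in replicates 2 to 4, and at 1244 to 2711 CPM in the 12 Zcchc8 KO libraries. Its own log2 fold change in the clones was 0.50 ± 0.22 (SE, adjusted p = 0.08). In 3 of the 5 groups the library lowest in mt-Rnr2 was also lowest in Gm42418, and in 3 the highest was highest in both. Within wild type mt-Rnr1, mt-Rnr2, mt-Nd6 and Gm42418 all ranked in the order replicate 2, 3, 4, 1. Taken relative to Gm42418 in the same library, mt-Rnr2 differed by log2 0.11 between the clones and wild type (exact permutation p = 0.563, two-sided), with the ratio in wild-type replicate 1 at 0.178 and in the other 3 at 0.0754 to 0.117. Without that replicate the difference was log2 0.35 (exact permutation p = 0.0352), and for mt-Rnr1 it was 0.08 with all libraries (exact permutation p = 0.688) and 0.36 without replicate 1 (exact permutation p = 0.022). These 4 p-values are not adjusted and the scale was chosen after the data were seen. They also took each library as a unit and did not take its clone into account. The loci of the list of rRNA-bearing genes held 1.06% to 2.99% of counts in wild type and 2.13% to 3.46% in the clones. Most of these counts were those of Gm26917, at 20519 ± 7803 CPM in wild type and 25178 ± 3498 CPM in the clones (SD). Its log2 fold change was 0.29 ± 0.14 (SE, adjusted p = 0.112), smaller than that of Gm42418. The mitochondrial rRNAs were not taken relative to Gm26917, so the differences above hold for Gm42418 only. The part of rRNA removal or carry-over in the change of mt-Rnr1 and mt-Rnr2 was not tested.

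**Figure D2:**
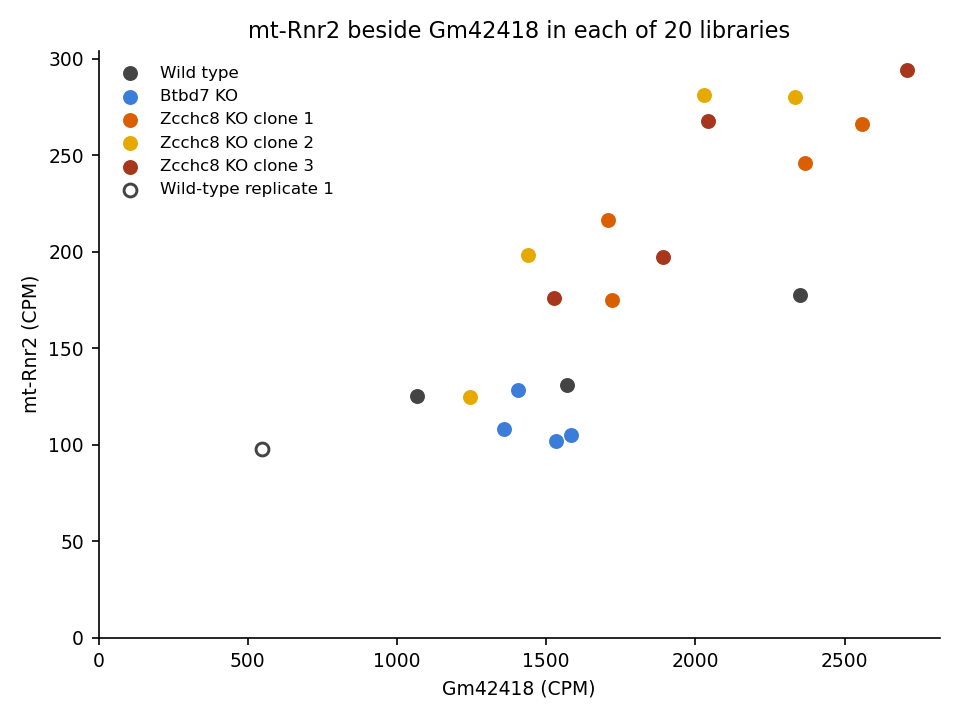
Level of mt-Rnr2 (vertical axis, CPM) beside that of Gm42418 (horizontal axis, CPM), with 1 point per library coloured by group and wild-type replicate 1 as an open circle. Wild-type replicate 1 is lowest on both axes, at 97.5 CPM of mt-Rnr2 and 547.2 CPM of Gm42418, while the 4 Btbd7 KO libraries lie at 102 to 128.3 CPM of mt-Rnr2.

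The 3 measured mRNAs that start before the copied stretch, mt-Nd1, mt-Nd2 and mt-Co1, gave no call in the mean of the clones. For mt-Nd1 wild type had 16800 CPM in replicate 1 and 12367, 12916 and 14950 CPM in replicates 2 to 4. Clone 1 had 14933, 14832, 14893 and 14482 CPM, clone 2 had 13347, 14253, 11644 and 14106 CPM, and clone 3 had 11940, 12091, 12646 and 12424 CPM. Clone 1 lay inside the wild-type range, while 2 libraries of clone 3 and 1 of clone 2 lay below its lowest library. The log2 fold change of the mean was -0.09 ± 0.06 (SE, adjusted p = 0.248). In clone 3 alone mt-Nd1 was lower by a log2 fold change of -0.22 ± 0.07 (SE, adjusted p = 0.0209).

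For mt-Nd2 wild-type replicate 1 was at 9990 CPM and replicates 2 to 4 at 5375, 5983 and 7383 CPM, and the 12 KO libraries lay between 5401 and 7301 CPM, within the wild-type range. For mt-Co1 the same replicate was at 28845 CPM, replicates 2 to 4 at 13548, 15624 and 18198 CPM, and the KO libraries between 13596 and 18473 CPM. The log2 fold changes were -0.14 ± 0.09 (adjusted p = 0.26) and -0.23 ± 0.11 (adjusted p = 0.0927). Their sign rested on replicate 1, since without it they were 0.05 ± 0.06 and 0.03 ± 0.05 (SE, adjusted p = 0.583 and 0.735). Without wild-type replicate 2 in its place mt-Nd1, mt-Nd2 and mt-Co1 were each called lower, at log2 -0.16, -0.27 and -0.38. Within wild type the 6 plus-strand mRNAs all ranked in the order replicate 1, 4, 3, 2, the reverse of the order of Gm42418.

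The 3 measured plus-strand mRNAs that end beyond the stretch, mt-Nd4, mt-Nd5 and mt-Cytb, had higher estimates than mt-Nd1, mt-Nd2 and mt-Co1. Of these, mt-Nd4 lies partly inside the stretch. For mt-Cytb wild-type replicate 1 had 6422 CPM and replicates 2 to 4 had 4355, 4623 and 5517 CPM. Clone 1 had 6718, 6825, 6858 and 7080 CPM, above every wild-type library. Clone 2 had 5791, 5572, 5341 and 5763 CPM, inside the wild-type range, and clone 3 had 6432, 6046, 6723 and 6924 CPM, of which 1 library fell below wild-type replicate 1. The log2 fold change of the mean was 0.27 ± 0.06 (SE, adjusted p = 0.0016), and without wild-type replicate 1 it was 0.37 ± 0.05 (SE, adjusted p = 1.94e-08). With cell lines as the replicates it was 0.23 ± 0.10 (SE, adjusted p = 0.253), so the call was lost.

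For mt-Nd5, wild-type replicate 1 was at 7717 CPM, above all the other 19 libraries, and replicates 2 to 4 at 3834, 4530 and 5461 CPM. Clone 1 had 5805, 5727, 5708 and 6231 CPM, clone 2 had 6230, 5536, 4766 and 5602 CPM, and clone 3 had 6460, 5595, 6741 and 7236 CPM. With all libraries the log2 fold change was 0.15 ± 0.10 (SE, adjusted p = 0.297), and without replicate 1 it was 0.36 ± 0.06 (SE, adjusted p = 2.59e-05). The neighbouring mt-Nd4 had 5438 CPM in wild-type replicate 1, 2059, 2443 and 3144 CPM in replicates 2 to 4, and 2671 to 4017 CPM in the 12 KO libraries. Its log2 fold change was 0.03 ± 0.14 with all libraries (SE, adjusted p = 0.911) and 0.37 ± 0.08 without replicate 1 (SE, adjusted p = 0.000295). Whether mt-Nd4 and mt-Nd5 are called higher is thus decided by 1 control library.

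**Figure D3:**
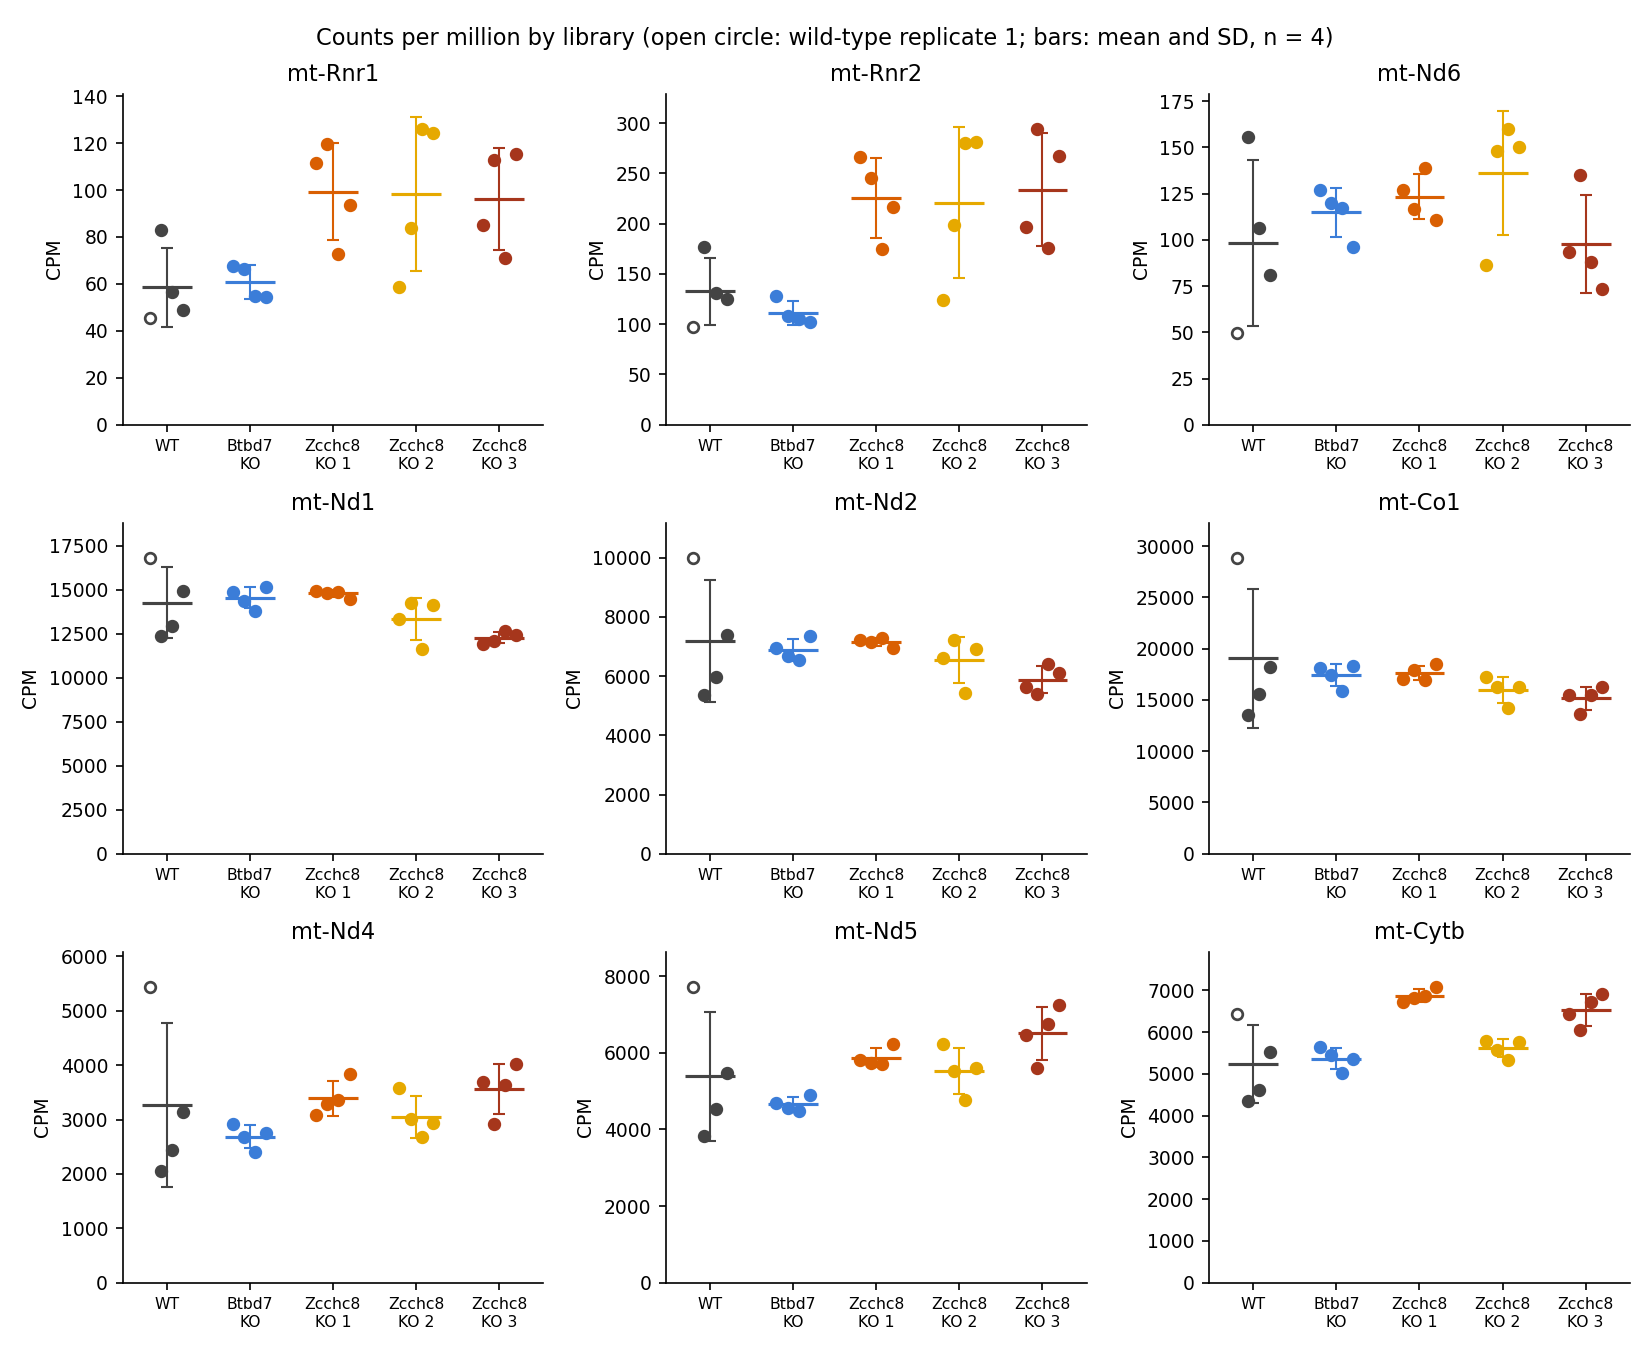
CPM of the 2 rRNAs and 7 mRNAs in each library, 1 panel per gene with axes from 0, where points are libraries, the open circle is wild-type replicate 1, and bars are the mean and SD of 4 libraries. In the panels of mt-Nd1, mt-Nd2, mt-Co1, mt-Nd4 and mt-Nd5 the open circle is the highest point of all 20, while in mt-Rnr1, mt-Rnr2 and mt-Nd6 it is the lowest.

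**Figure D4:**
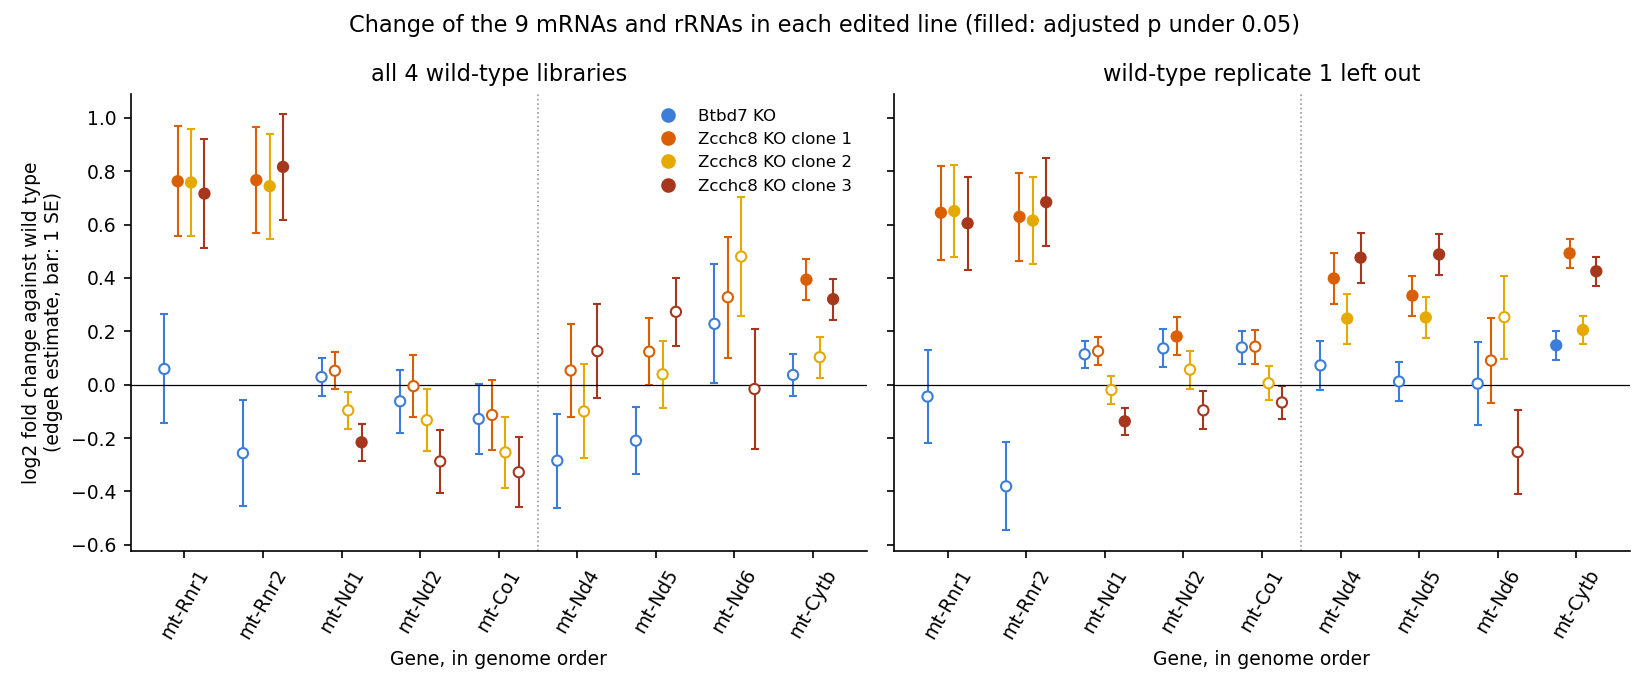
Log2 fold change against wild type (edgeR estimate, bar 1 SE) of 9 genes in genome order for each edited line. All 4 wild-type libraries are used on the left, and wild-type replicate 1 is left out on the right. Filled points have an adjusted p under 0.05. The dotted line stands between mt-Co1 and mt-Nd4, both of which the copied stretch enters in part. On the right mt-Nd4, mt-Nd5 and mt-Cytb are called higher in each Zcchc8 KO clone, at 0.21 to 0.49, while mt-Co1 lies between -0.07 and 0.14 in the 4 edited lines.

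A ratio of 2 genes in the same library does not depend on how libraries are scaled, and it set mt-Cytb apart from mt-Nd1. The log2 ratio of mt-Cytb to mt-Nd1 was -1.39 in wild-type replicate 1 and -1.51, -1.48 and -1.44 in replicates 2 to 4. In clone 1 it was -1.15, -1.12, -1.12 and -1.03, in clone 2 -1.20, -1.36, -1.12 and -1.29, and in clone 3 -0.8926, -0.9999, -0.9115 and -0.8436. All 12 Zcchc8 KO libraries lay above all 4 wild-type libraries. The permutation tests of this and the other ratios took each library as a unit and did not take its clone into account. The ratio of mt-Cytb to mt-Nd1 was not tested with cell lines as the replicates. The mean difference was 0.37 (exact permutation p = 0.0011, two-sided, the smallest p that 12 libraries against 4 allow, adjusted p = 0.0165 over 15 tests of 3 ratios in 5 contrasts). Without wild-type replicate 1 the difference was 0.39, again at the smallest p of that design (exact permutation p = 0.0044), and the adjusted p was 0.0659, so the call was lost. The differences of the single clones were 0.35, 0.21 and 0.54. Each was at the smallest p that 4 libraries against 4 allow (exact permutation p = 0.0286) and did not pass adjustment (adjusted p = 0.0857). The 4 Btbd7 KO libraries, at -1.50 to -1.40, overlapped wild type, with a difference of 0.01 (exact permutation p = 0.714, adjusted p = 0.824).

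The same ratio was described, with no test, for the other plus-strand mRNAs. The log2 ratio of mt-Nd5 to mt-Nd1 averaged -1.55 ± 0.12 in wild-type replicates 2 to 4 and -1.33 ± 0.08, -1.27 ± 0.12 and -0.92 ± 0.14 (SD) in clones 1 to 3. All 12 KO libraries lay above these 3, but only 5 lay above wild-type replicate 1, which was at -1.12. For mt-Nd4 to mt-Nd1, 10 of the 12 were above wild-type replicates 2 to 4, and 0 above replicate 1. For mt-Nd2 and mt-Co1, which start before the stretch, the means of the clones lay within 1 SD of wild-type replicates 2 to 4. For mt-Nd2 the ratio averaged -1.11 ± 0.09 in wild-type replicates 2 to 4 and -1.06 to -1.03 in the clones, with wild-type replicate 1 at -0.75. For mt-Co1 it averaged 0.23 ± 0.09 and 0.25 to 0.30, with wild-type replicate 1 at 0.78. That library thus stood above every other library in both.

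**Figure D5:**
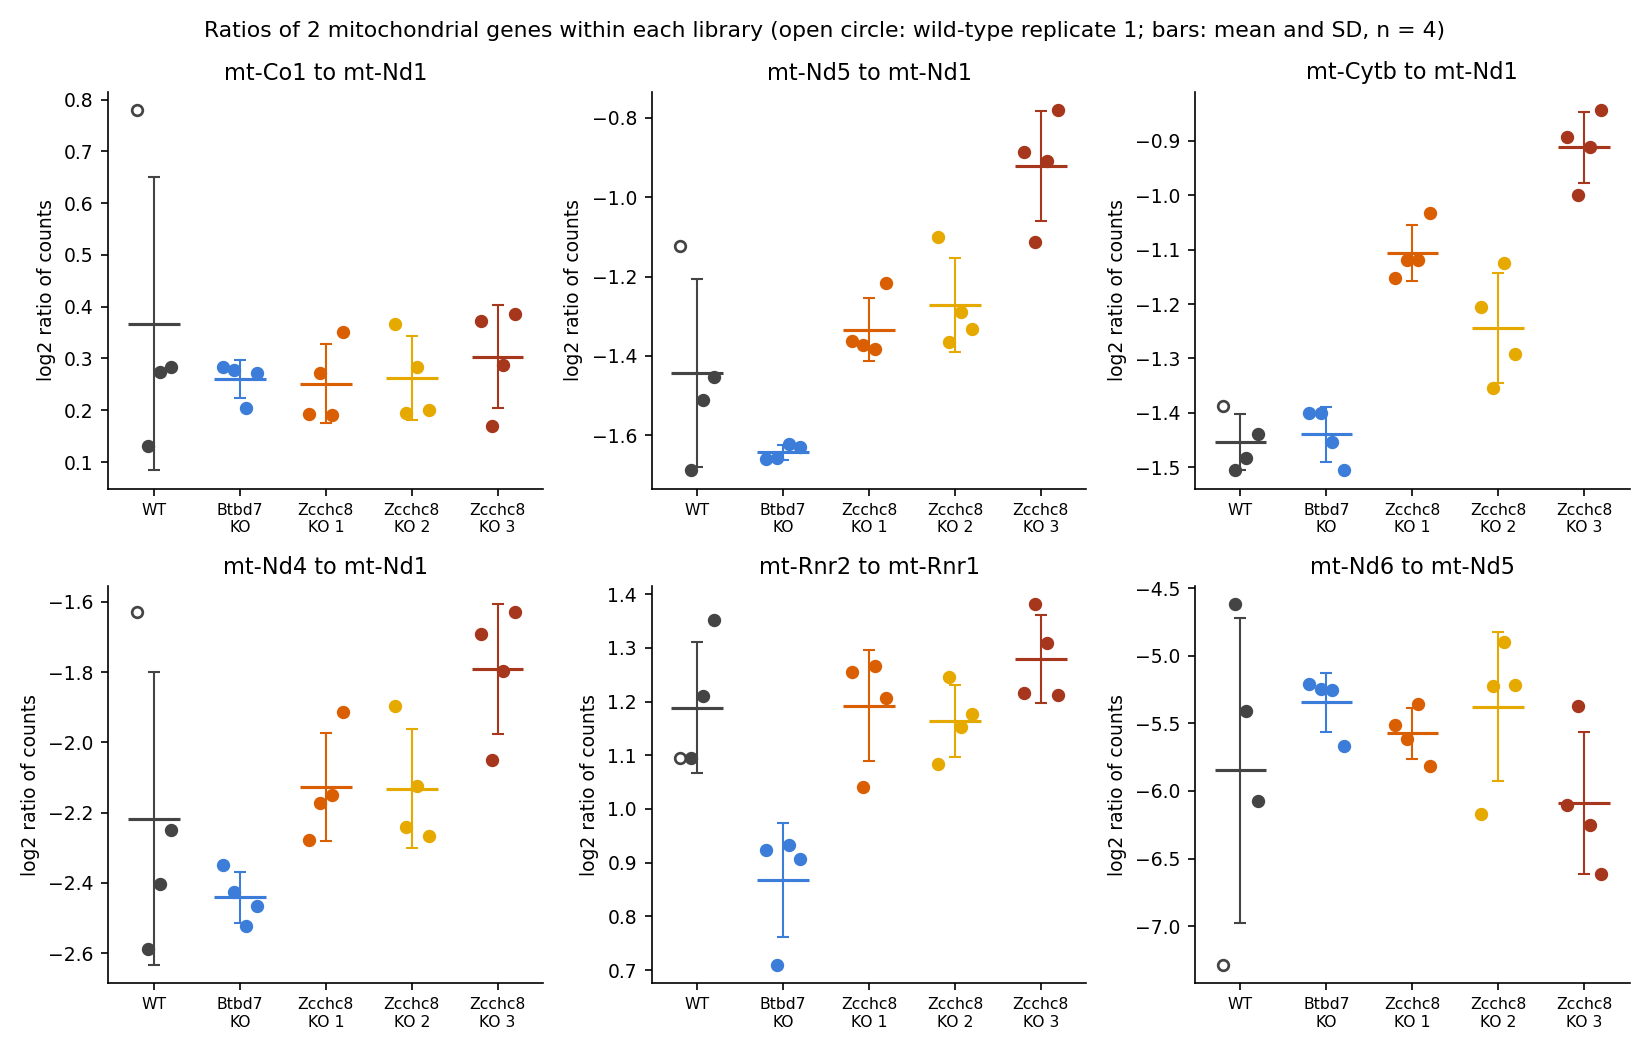
Log2 ratio of the counts of 2 mitochondrial genes within each library, 1 panel per pair, with points for libraries, the open circle for wild-type replicate 1, and bars for the mean and SD of 4 libraries. For mt-Cytb to mt-Nd1 the 12 Zcchc8 KO libraries, at -1.36 to -0.84, all lie above the 4 wild-type libraries, at -1.51 to -1.39, and for mt-Rnr2 to mt-Rnr1 the 4 Btbd7 KO libraries lie lowest.

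The ratio of the 2 rRNAs showed no such shift in the Zcchc8 KO clones. The log2 ratio of mt-Rnr2 to mt-Rnr1 averaged 1.19 ± 0.12 in wild type and 1.19 ± 0.10, 1.16 ± 0.07 and 1.28 ± 0.08 in clones 1 to 3 (SD, n = 4), with overlapping ranges. The difference of the mean was 0.02 (exact permutation p = 0.685, adjusted p = 0.824), and -0.0075 without wild-type replicate 1 (exact permutation p = 0.927). In the Btbd7 KO it averaged 0.87 ± 0.11, and all 4 libraries, at 0.92, 0.71, 0.93 and 0.91, lay below the 4 of wild type at 1.10 to 1.35. That difference of -0.32 was at the smallest p of the design (exact permutation p = 0.0286) and did not pass adjustment (adjusted p = 0.0857). It was -0.35 without wild-type replicate 1 (exact permutation p = 0.0571, the smallest possible, adjusted p = 0.171).

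The only mRNA of the minus strand, mt-Nd6, spread widely within wild type. It was at 49.5 CPM in wild-type replicate 1 and at 155.9, 106.7 and 80.8 CPM in replicates 2 to 4. Clone 1 had 127.1, 116.9, 139.0 and 110.8 CPM, clone 2 had 86.5, 148.3, 160.0 and 150.4 CPM, and clone 3 had 93.7, 135.3, 88.3 and 73.7 CPM. All groups overlapped. The log2 fold change of the mean was 0.26 ± 0.18 (SE, adjusted p = 0.285), and 0.03 ± 0.13 without wild-type replicate 1 (SE, adjusted p = 0.886). Without wild-type replicate 2 it was 0.57 and called higher. The log2 ratio of mt-Nd6 to its plus-strand neighbour mt-Nd5 ran from -7.29 to -4.62 in wild type and from -6.62 to -4.90 in the clones, a mean difference of 0.17 (exact permutation p = 0.66, adjusted p = 0.824). Its sign turned without wild-type replicate 1, to -0.31 (exact permutation p = 0.409, adjusted p = 0.762). Whether the counts used the strand of the reads is not given in the sources used here, so plus-strand reads across mt-Nd6 cannot be told apart from its own.

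Transfer RNAs were near the floor of what these libraries hold. The 22 tRNA genes had 7891 counts in all 20 libraries together. Of these, 9 had none, 7 had too few to test, and 6 were tested: mt-Ti, mt-Tq, mt-Tm, mt-Tw, mt-Tt and mt-Tp. The most abundant were mt-Tw, which decodes tryptophan, at 9.83 to 20.98 CPM, and mt-Tm, which decodes methionine, at 5.35 to 19.4 CPM. Both border mt-Nd2. The remaining 4 stayed between 0.147 and 5.27 CPM in every library. Of the 6 tested, 0 were called in the mean of the clones with all libraries or without wild-type replicate 1, and 0 had an unadjusted p under 0.05. Estimates ran from log2 -0.36 ± 0.39 for mt-Tq to 0.17 ± 0.34 for mt-Tp (SE), and these errors leave changes of such a size undetectable at this depth.

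The clones gave the following counts one by one. In clone 1, 3 of 15 members were higher, against 18.3% of all genes tested, and 0 were lower, against 16.8%. In clone 2, 2 were higher (17.3%) and 0 lower (14.4%), and in clone 3, 3 were higher (14.5%) and 1 lower (14.4%). Clones 1 and 3 called mt-Rnr1, mt-Rnr2 and mt-Cytb higher, and clone 2 called only the rRNAs. Leaving out wild-type replicate 1 gave 6 higher (19.1%) and 0 lower (19.8%) in clone 1, 5 higher (18.0%) and 0 lower (16.3%) in clone 2, and 5 higher (15.4%) and 1 lower (16.5%) in clone 3. The calls then added mt-Nd4 and mt-Nd5 in all 3 clones, mt-Cytb in clone 2 and mt-Nd2 in clone 1. The joint test for differences among the 3 clones called 2 members, against 28.3% of all genes: mt-Nd1 (log2 fold changes 0.05, -0.10 and -0.22 in clones 1 to 3, adjusted p = 0.0136) and mt-Cytb (0.39, 0.10 and 0.32, adjusted p = 0.0131). Without wild-type replicate 1, which is in none of the 3 groups that this test compares, it called 7 members against 38.8% of all genes.

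In the Btbd7 KO, 0 of 15 members were higher, against 8.01% of all genes tested, and 0 were lower, against 7.79%. None had an unadjusted p under 0.05, and DESeq2 also called 0. For mt-Cytb the 4 libraries had 5633, 5444, 5031 and 5345 CPM, within the wild-type range, and the log2 fold change was 0.04 ± 0.08 (SE, adjusted p = 0.805). With wild-type replicate 1 left out, mt-Cytb was called higher at 0.15 ± 0.05 (SE, adjusted p = 0.0491), the 1 call against 8.77% of all genes higher, and 0 were lower, against 8.44%. For mt-Rnr2 the libraries had 128.3, 108.3, 105.0 and 102.0 CPM, and the log2 fold change was -0.26 ± 0.20 (SE, adjusted p = 0.421).

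Nuclear genes that make, process and translate mitochondrial RNA were taken as lists. Each count of calls in the clones is read against the 17.7% of all genes called higher and the 17.7% called lower. For counts without wild-type replicate 1 these shares were 17.2% and 19.1%. In the clones against wild type, of 9 factors of mitochondrial transcription (such as Polrmt and Tfam) 0 were higher and 0 lower by edgeR, with 2 at an unadjusted p under 0.05 and a median log2 fold change of 0.03, against 0.02 over all genes. Without wild-type replicate 1 the calls were again 0, with 1 at an unadjusted p under 0.05. Of 17 genes of mitochondrial DNA replication 3 were higher, a share near that of all genes, and 0 lower. These were Mgme1, an exonuclease (log2 0.56 ± 0.17, adjusted p = 0.012), Polg, the DNA polymerase (0.26 ± 0.09, adjusted p = 0.0234), and Ssbp1, which binds single-stranded DNA (0.27 ± 0.10, adjusted p = 0.0426). The count was 1 without wild-type replicate 1.

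Of 43 genes of mitochondrial RNA processing and decay, 3 were higher and 9 lower, with a list median of log2 -0.05, and without wild-type replicate 1 the counts were 3 and 8. The lowest adjusted p-values were those of Rexo2, an oligoribonuclease (-0.68 ± 0.09, adjusted p = 9.4e-07), Pus1, a pseudouridine synthase (-0.39 ± 0.07, adjusted p = 0.000202), and Elac2, which cuts the 3′ ends of tRNAs (-0.36 ± 0.08, adjusted p = 0.00125), all with SE. Rexo2 went from 66.3 ± 5.63 CPM in wild type to 41.7 ± 7.47 CPM over the 12 KO libraries (SD). Of 17 mitochondrial tRNA synthetases 1 was higher and 5 lower with or without that replicate, with Mars2 (log2 -0.42), Rars2 (-0.45) and Tars2 (-0.30) the clearest. Of 12 translation factors 2 were higher, Mrrf (0.38) and Mtrf1l (0.30), and 1 lower, the elongation factor Gfm1 (-0.45 ± 0.05, adjusted p = 3.77e-07). With wild-type replicate 1 left out 1 was higher and 1 lower.

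Of 77 mitochondrial ribosomal protein genes tested, 4 were higher and 16 lower, with a list median of log2 -0.07. The share lower was near the 17.7% of all genes. Leaving out wild-type replicate 1 gave 3 higher, against 17.2% of all genes, and 29 lower, against 19.1%, with a median of -0.16. The clearest were Mrpl17, which rose from 40.2 ± 2.73 to 94.6 ± 15.8 CPM (SD) at log2 1.22 ± 0.06 (SE, adjusted p = 1.13e-13), Mrpl13 (-0.48 ± 0.07, adjusted p = 6.01e-06) and Mrps27 (-0.48 ± 0.08, adjusted p = 2.36e-05). In the Btbd7 KO, where 8.01% of all genes were higher and 7.79% lower, the same list had 10 higher and 1 lower, with a median of 0.22, and the processing and decay list had 7 higher and 0 lower, among them Tbrg4 (0.56 ± 0.09, adjusted p = 5.73e-05), Elac2 (0.43 ± 0.10, adjusted p = 0.00363) and Trmt5 (0.51 ± 0.13, adjusted p = 0.00529). The replication list had 3 higher there (Lig3, Rnaseh1 and Twnk), and the transcription, translation factor and synthetase lists had 0 calls in either direction by edgeR, with 2, 2 and 1 genes at an unadjusted p under 0.05. Without wild-type replicate 1 the Btbd7 KO counts were 10 higher and 1 lower for ribosomal proteins, 6 higher for processing and decay, 3 for replication and 1 for translation factors. Of all genes 8.77% were higher and 8.44% lower in that fit. Every such count shares the wild-type libraries with the others.

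Among RNAs kept in the nucleus, Neat1 and Malat1 differed between the groups. Neat1 was higher in the clones at log2 1.24 ± 0.09 (SE, adjusted p = 3.87e-11) and Malat1 at 0.35 ± 0.05 (SE, adjusted p = 3.75e-06). In the Btbd7 KO they went opposite ways, with Neat1 higher at 0.39 ± 0.10 (SE, adjusted p = 0.00697) and Malat1 lower at -0.51 ± 0.06 (SE, adjusted p = 7.26e-07). The nuclear retained list took 0.665% to 0.849% of counts in wild type, 0.571% to 0.618% in the Btbd7 KO and 0.928% to 1.22% in the clones, and its part in the mitochondrial results was not tested.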

How the data were processed

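The authors deposited raw read counts per gene, 1 column per library. FastQC and STAR 2.7.3a are named in the submitters' processing notes without a role. The genome build, annotation, counter, strand setting and handling of reads with several alignments are not given in the sources used here. Gene names came from GENCODE M21, in which 54487 of 55471 identifiers matched with their version. From the deposited counts, edgeR 4.0.16 (R 4.3.3) filtered genes by group (filterByExpr), scaled libraries by TMM and fitted the quasi-likelihood model to all 5 groups, with Benjamini-Hochberg adjustment over all genes tested and calls at 0.05. The code was tested on simulated counts. CPM use TMM-scaled library sizes. Ratios within a library were tested by two-sided exact permutation (scipy 1.17.1). Nuclear copies were found with blastn 2.17.0 against annotated nuclear transcripts (at least 90% identity over 50 bases), since no genome sequence was used here. DESeq2 1.42.0 and other settings were alternatives. The members and lists were chosen with earlier results of these data known. The rule for named genes was full statistics for mt-Rnr1, mt-Rnr2, mt-Nd6 and the called members with the highest and lowest fold changes, levels for the other members, and up to 3 called genes with the lowest adjusted p per list. Statistics of the other measured mRNAs, Gm42418, Neat1 and Malat1 were added after their values were seen. A second deposited gene table repeats 19 of the 20 libraries with identical values. The deposited counts over regions upstream of genes are used only in the closing section. The authors' tables of other regions were not used. The result of 1 further list of cell type markers is not reported here.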

Additional observations from a re-analysis of the deposited data

Results flagged for a closer look

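In 5 of 95 groups of 4 values (15 tested genes, the mitochondrial share and 3 ratios in 5 groups), 1 library stood off from the other 3 by more than Dixon's 95% critical value for the gap over the range. Chance flags about 1 in 20 such groups. In wild type, mt-Tm was at 19.4 CPM in 1 library, replicate 1, with the next at 9.03 CPM. In the Btbd7 KO, the log2 ratio of mt-Rnr2 to mt-Rnr1 was lowest at 0.71, with the next at 0.91, and that of mt-Nd6 to mt-Nd5 was lowest at -5.67, with the next at -5.25. In Zcchc8 KO clone 2 the share of mitochondrial counts was 4.57% in 1 library (replicate 3), with the next at 5.28%, and mt-Nd6 was at 86.5 CPM in another (replicate 1), with the next at 148.3 CPM.

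The 3 Zcchc8 KO clones differed from each other, by the joint test of edgeR, in mt-Cytb (adjusted p = 0.0131) and mt-Nd1 (adjusted p = 0.0136).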

How the results depend on the processing

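With no filter on low counts (26 members tested) the calls in the mean of the Zcchc8 KO clones were 5 higher and 3 lower, with 1, 2, 3 and 3 lower in clones 1 to 3 and the Btbd7 KO and 7 in the joint test. Fitting only the groups compared gave 0 higher in clone 2 (mt-Rnr1 and mt-Rnr2 at an adjusted p of 0.0522 each), 0 lower in clone 3 and 8 in the joint test. The 1 lower call in clone 3 became 0 with no TMM scaling and with a log2 fold change over 0.5 required. Leaving out 1 library at a time gave 3 to 5 higher and 0 to 3 lower in the mean of the clones, 3 to 6 higher in clone 1, 2 to 5 higher and 0 to 2 lower in clone 2, 3 to 5 higher and 1 to 3 lower in clone 3, 0 to 1 higher and 0 to 2 lower in the Btbd7 KO, and 2 to 7 in the joint test. The highest counts of higher and of joint calls came without wild-type replicate 1 and those of lower calls without wild-type replicate 2. The log2 fold changes then ranged from -0.27 to 0.0471 for mt-Nd2, -0.38 to 0.0271 for mt-Co1 and -0.15 to 0.37 for mt-Nd4. The log2 difference in mt-Cytb to mt-Nd1 ranged from 0.34 to 0.39 in the mean of the clones, losing its call without any 1 of the wild-type libraries (fewer samples raise the smallest p), and from -0.0037 to 0.0358 in the Btbd7 KO. That in mt-Nd6 to mt-Nd5 ranged from -0.31 to 0.58 in the mean, -0.21 to 0.68, -0.0087 to 0.88 and -0.72 to 0.17 in clones 1 to 3. That in mt-Rnr2 to mt-Rnr1 ranged from -0.0075 to 0.0784 in the mean, -0.0272 to 0.0586 in clone 1 and -0.0551 to 0.0307 in clone 2. Apart from the smallest p, the cause was not tested. With the Btbd7 KO as control 4 members were higher, and with cell lines as replicates 2. Apart from the fit without wild-type replicate 1, the share of all genes called is not given for the settings of this section. Their counts therefore show only how far the calls on members move, and are not read as a result about mitochondrial genes.

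Libraries with the same replicate number share only the number. Their deviations from the group means correlated at r = -0.0705 to 0.0992 over 40 pairs, 0 of them over 0.1. With the replicate number as a block, 3 members were higher and 0 lower in the mean of the clones. The log2 difference in mt-Cytb to mt-Nd1 stayed 0.37 (exact sign flips of 4 pairs, p = 0.125, adjusted p = 0.375). That is the smallest p that 4 pairs allow, so this setting could give no call.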

Other observations

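A separate deposited table counts reads over regions upstream of genes in 19 libraries, without wild-type replicate 1. Of the 37 mitochondrial genes, 5 had counts there. The region listed for mt-Tq held 43907 to 128333 counts per library, 1.01 to 1.02 times the count of the gene mt-Nd2 in the same library. The region listed for mt-Tt held 0.997 to 1.01 times the count of mt-Cytb. The region of mt-Cytb had 11429 to 31503 counts, that of mt-Nd6 685 to 1957 and that of mt-Ts1 0 to 14. The first and second of these thus hold about the count of a neighbouring mRNA.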
